A study of Mus musculus with 24 samples.

Results

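The miR-148 and miR-152 family was followed in mouse liver through its 6 mature products, picked by name from a table of 1908 mature miRNA names: mmu-miR-148a-3p, mmu-miR-148a-5p, mmu-miR-148b-3p, mmu-miR-148b-5p, mmu-miR-152-3p and mmu-miR-152-5p. The species prefix is left out below. All 6 passed the filter on low counts and were among the 421 miRNAs tested. Small RNA was sequenced from 24 liver samples of C57Bl/6J mice in 3 groups of 8. AM132 mice were made obese by 11 weeks of high fat diet and then injected intravenously with a 16-mer locked nucleic acid (LNA) oligonucleotide complementary to miR-132, at 3.3 mg/kg on 3 days in a row. AM608 mice had the same diet and the same dosing with a 15-mer of the same chemistry directed at the primate-specific miR-608, which served as control because no complement is predicted in mice. RCD mice ate regular chow, were of matched age and have no injection named for them. Injected mice were killed 7 days after treatment. The groups hold no obese mice without an oligonucleotide, so AM608 against RCD sets diet and injection together. The labels give neither sex nor age in weeks, and number the samples without tying each to one animal, so the p-values rest on sample-to-sample spread, which may be technical.

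A miRNA precursor is a hairpin whose arms are cut out as a 5p and a 3p product, of which one, the guide, is usually kept in the silencing complex and the other, the passenger, is mostly degraded. Bases 2 to 8 of the guide, the seed, pair with target mRNAs. In this family the 3p arm is the usual guide. miR-148a-3p is among the most abundant miRNAs of hepatocytes and is reported to repress the cholesterol exporter ABCA1, while miR-148 and miR-152 are reported to repress the DNA methyltransferase DNMT1.

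The mature sequences are shown because they define the family: the 3 guides carry the same seed and differ only behind it. Seeds are in capitals, 5′ to 3′, from RefSeq (GRCm38.p6), where all 6 members were found.
miR-148a-3p: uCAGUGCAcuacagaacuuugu
miR-148b-3p: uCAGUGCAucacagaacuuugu
miR-152-3p: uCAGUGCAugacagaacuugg
miR-148a-5p: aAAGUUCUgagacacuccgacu
miR-148b-5p: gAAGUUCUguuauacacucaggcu
miR-152-5p: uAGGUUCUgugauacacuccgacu
Counted from the 5′ end, miR-148b-3p differs from miR-148a-3p by C9U and U10C, miR-152-3p differs from miR-148a-3p by C9U, U10G and U20G, and miR-152-3p differs from miR-148b-3p by C10G and U20G. The seed CAGUGCA occurred in these 3 of 1679 mature miRNA names of the RefSeq table and in no other. miR-148a-5p and miR-148b-5p share the seed AAGUUCU, and miR-152-5p has a seed of its own, AGGUUCU. With 2 or 3 bases between the guides, reads with sequencing errors or trimmed ends could be counted under a neighbouring name, and how the authors assigned such reads is not given in the sources used here.

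The hairpins place both arms on each precursor, with the mature arms in capitals, the 5p arm first.
Mir148a: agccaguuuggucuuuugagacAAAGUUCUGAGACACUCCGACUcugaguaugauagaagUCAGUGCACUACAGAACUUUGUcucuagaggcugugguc
Mir148b: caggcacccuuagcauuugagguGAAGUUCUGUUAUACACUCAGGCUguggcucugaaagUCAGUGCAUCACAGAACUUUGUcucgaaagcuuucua
Mir152: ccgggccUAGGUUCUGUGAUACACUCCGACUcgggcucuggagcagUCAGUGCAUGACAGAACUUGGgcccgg
Mir148a lies on chr6:51269812-51269910, minus strand, between genes, 162760 bp from the nearest protein-coding gene, Nfe2l3 (GENCODE M21, GRCm38). Mir148b (chr15:103285125-103285221, plus strand) lies in an intron of Copz1, on the same strand, and Mir152 (chr11:96850393-96850465, plus strand) in an intron of Copz2. Copz1 and Copz2 encode zeta subunits of the coatomer, the coat of vesicles between Golgi and endoplasmic reticulum. The mRNAs of these hosts were not measured here. No build is stated for the counts themselves.

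AM132 libraries held 5926983 to 8734721 miRNA counts, AM608 libraries 6855571 to 8532049, and RCD libraries 5689143 to 8380591. miR-132-3p, the target of the AM132 oligonucleotide, had 0 counts in all 8 AM132 libraries. It had 13.1 to 36.4 CPM in AM608 and 10.4 to 50.6 CPM in RCD. The detection floor was taken as 3 counts summed across AM132 (0.0598 CPM). Against it, the counted level in AM132 was lower by at least 390-fold than that of AM608, a bound that covers counting error only. Counts do not tell loss of the miRNA from loss of its detection. miR-122-5p, the defining hepatocyte miRNA, was first in abundance in every library. Some libraries stood apart. RCD library 3 had 858.8 CPM of a list of 6 neuronal miRNAs, against 70.7 CPM or less in every other library, and the lowest sum of 4 hepatocyte miRNAs, at 154143 CPM. The scaling factors (trimmed mean of M values, TMM) were 0.963 to 0.980 in AM608 libraries 1, 2 and 4 and 1.10 to 1.24 in the other 5 AM608 libraries. AM132 library 8 was treated as doubtful with RCD library 3, from an earlier analysis of these data, and both were left out together in a repeat of each test. CPM below are counts per 1e6 counts of the TMM-scaled library.

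The guides were far apart in level, and miR-148a-3p made up nearly all reads with the shared seed. miR-148a-3p held rank 2 among the 421 tested miRNAs in every library, with 170133 ± 21189 CPM in AM132, 135976 ± 28579 CPM in AM608 and 140428 ± 25025 CPM in RCD (mean ± SD, n = 8 each). It took 98.7 to 99.2% of the reads of the 3 guides in AM132 livers, 98.3 to 98.9% in AM608 livers and 98.9 to 99.2% in RCD livers. All 3 guides together held 15.5 ± 1.31% of all miRNA counts in AM132, 14.6 ± 1.73% in AM608 and 14.4 ± 1.04% in RCD (SD, n = 8 each), ranges that overlapped.

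After miR-148a-3p the order of levels was miR-152-3p and miR-148b-3p, then miR-148a-5p, then miR-152-5p and miR-148b-5p. Each read adds 1 count whatever its length, but reads after PCR are not independent molecules and adapter ligation favours some ends over others. Levels of different miRNAs therefore compare only roughly. miR-152-3p and miR-148b-3p were neighbours whose order depended on the group: the ratio of miR-152-3p to miR-148b-3p within a library was 1.03 to 1.36 in AM132 livers, 0.972 to 1.27 in AM608 livers and 0.693 to 1.22 in RCD livers. miR-152-5p and miR-148b-5p had 34.4 ± 9.31 and 32.1 ± 3.59 CPM in AM132 and 33.2 ± 3.37 and 32.2 ± 2.88 CPM in AM608. In RCD they had 22.5 ± 4.10 and 27.4 ± 6.59 CPM (SD, n = 8 each). Their ranges overlapped in each group, and their difference within libraries was not tested.

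**Figure D1:**
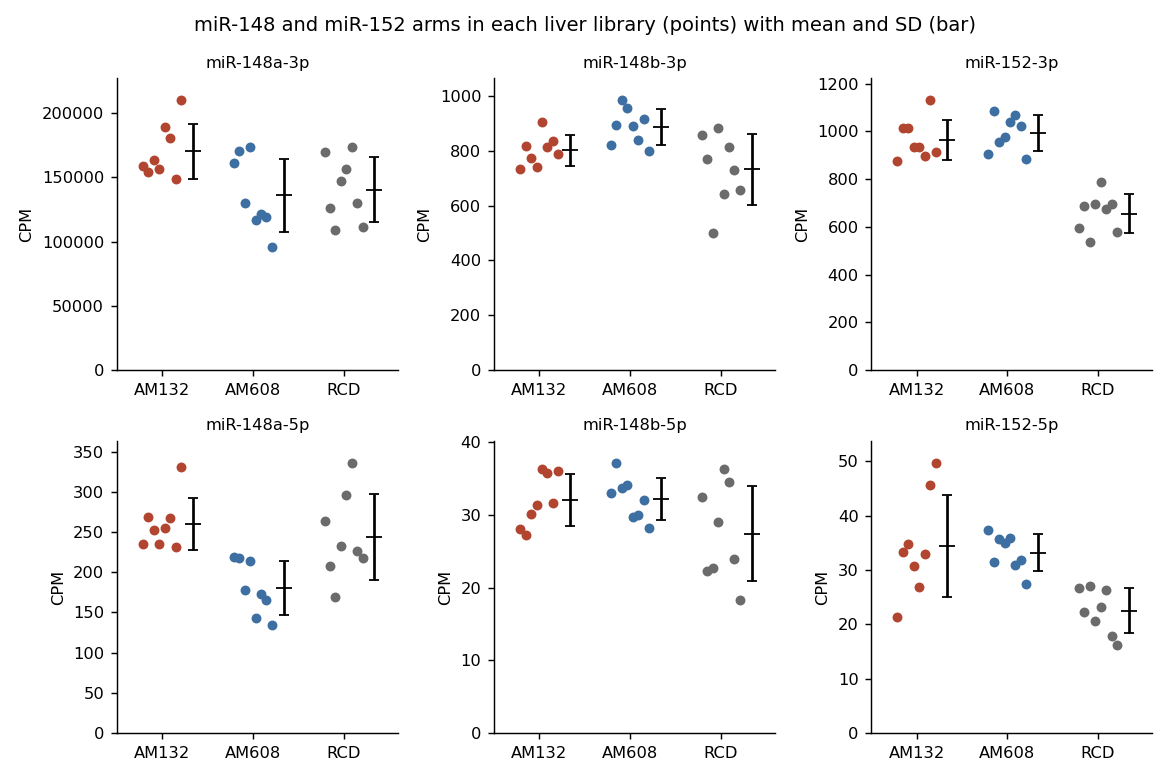
CPM (scaled as in the text, linear axes from 0) of each arm in the 8 libraries of AM132, AM608 and RCD; each point is a library and the bar gives mean and SD. All AM608 values of both miR-152 arms lie above all RCD values, and all AM132 values of miR-148a-5p lie above all AM608 values.

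Both arms of miR-152 were higher in AM608 than in RCD liver, groups that differ in diet and injection together. miR-152-3p, the guide, had 884 to 1087 CPM in AM608 (median 999), against 536 to 787 CPM in RCD (median 680). Every AM608 library lay above every RCD library. The log2 fold change was 0.60 (SE 0.0742, 1.51-fold, edgeR BH-adjusted p = 1.16e-06, adjusted by Benjamini-Hochberg over the 421). miR-152-5p, the passenger, had 27.3 to 37.4 CPM in AM608 (median 33.4), against 16.2 to 27.0 CPM in RCD (median 22.7). These groups did not overlap in CPM either. As a share of all miRNA counts they did overlap, at 0.0030 to 0.0041% in AM608 and 0.0018 to 0.0036% in RCD. The highest RCD share was that of RCD library 3. The log2 fold change of miR-152-5p was 0.56 (SE 0.146, 1.48-fold, edgeR BH-adjusted p = 0.00454).

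Both arms of miR-152 were also higher in AM132 than in RCD. miR-152-3p had 877 to 1131 CPM in AM132 (median 933), again above the 536 to 787 CPM of RCD with no overlap, at a log2 fold change of 0.56 (SE 0.0741, edgeR BH-adjusted p = 2.75e-06). miR-152-5p had 21.3 to 49.7 CPM in AM132 (median 33.0), which overlapped RCD, at a log2 fold change of 0.61 (SE 0.146, edgeR BH-adjusted p = 0.0018). Both comparisons use the same RCD libraries. Between AM132 and AM608 the log2 fold change of miR-152-3p was -0.04 (95% interval -0.19 to 0.11, edgeR BH-adjusted p = 0.788) and that of miR-152-5p 0.05 (-0.25 to 0.35, edgeR BH-adjusted p = 0.876). When libraries were scaled by their totals, miR-152-3p was called lower in AM132 than in AM608 (-0.29, edgeR BH-adjusted p = 0.0141), a setting that shifted the median of all tested miRNAs to -0.21, against 0.05 with TMM factors, and in which miR-152-5p turned to -0.19.

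The guide of miR-148b, the member in the paralogous host gene, was higher in AM608 than in RCD as well. miR-148b-3p had 798 to 984 CPM in AM608 (median 891), against 501 to 884 CPM in RCD (median 749), with overlap. Its log2 fold change was 0.28 (SE 0.0882, edgeR BH-adjusted p = 0.0189), a call lost without a filter on low counts (0.24, adjusted p = 0.132) and when the fit held AM608 and RCD alone (0.24, adjusted p = 0.0771). The lowest RCD value was that of RCD library 3; without it and AM132 library 8 the call was kept. In AM132 miR-148b-3p had 735 to 906 CPM (median 802) and was not called against RCD (0.13, 95% interval -0.05 to 0.31, edgeR BH-adjusted p = 0.263) or AM608 (-0.15, -0.33 to 0.04, edgeR BH-adjusted p = 0.351). It was called lower in AM132 than in AM608 with library totals (-0.39, edgeR BH-adjusted p = 2.29e-04) and when the fit held AM132 and AM608 alone (-0.18, 0.0285). miR-148b-5p, its passenger, had 27.2 to 36.3 CPM in AM132, 28.2 to 37.2 CPM in AM608 and 18.2 to 36.4 CPM in RCD and was not called in any of the 3 comparisons (log2 fold change -0.01 for AM132 against AM608, 0.23 for AM608 against RCD and 0.23 for AM132 against RCD, edgeR BH-adjusted p = 0.97, 0.17 and 0.162). With library totals it was called higher in AM608 than in RCD (0.31, edgeR BH-adjusted p = 0.0163).

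miR-148a-5p, the passenger of the abundant miR-148a hairpin, was lower in AM608 than in RCD, while 3 other members were higher. It had 134 to 219 CPM in AM608 (median 176), against 169 to 336 CPM in RCD (median 230). The groups overlapped, with AM608 libraries 5, 7 and 8 below every RCD library. AM608 libraries 1, 2 and 4, with the low scaling factors, had 219, 218 and 214 CPM, and the other 5 had 134 to 178 CPM. It was lower in AM608 by a log2 fold change of -0.43 (SE 0.128, 1.35-fold, edgeR BH-adjusted p = 0.0119). In AM132 it had 231 to 331 CPM (median 254), and in CPM every AM132 library lay above every AM608 library. As a share of all miRNA counts, miR-148a-5p did overlap, at 0.0210 to 0.0284% in AM132 and 0.0163 to 0.0215% in AM608. Its log2 fold change of 0.52 in AM132 against AM608 (SE 0.128, 1.44-fold, edgeR BH-adjusted p = 0.00589) was 0.29 with library totals, where the call was kept (edgeR BH-adjusted p = 0.0175). AM132 and RCD overlapped, at a log2 fold change of 0.09 (95% interval -0.17 to 0.36, edgeR BH-adjusted p = 0.583). The comparisons of AM132 against AM608 and of AM608 against RCD share the AM608 libraries, so a low AM608 group moves both.

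The guide miR-148a-3p had 148903 to 210062 CPM in AM132 (median 160949), 96020 to 173472 CPM in AM608 (median 125700) and 109195 to 173378 CPM in RCD (median 138603). AM608 libraries 1, 2 and 4, those with the lowest scaling factors of their group, had 160980, 170332 and 173472 CPM, and the other 5 had 96020 to 129848 CPM. All 3 groups overlapped, with the lowest AM132 library above the median of each other group. It was not called in AM132 against AM608 (0.32, 95% interval 0.07 to 0.58, edgeR BH-adjusted p = 0.0812), in AM608 against RCD (-0.05, -0.30 to 0.21, edgeR BH-adjusted p = 0.794) or in AM132 against RCD (0.28, 0.02 to 0.53, edgeR BH-adjusted p = 0.081). The call in AM132 against AM608 was reached among miRNAs with a mean of at least 10 CPM (0.31, edgeR BH-adjusted p = 0.0388), and that in AM132 against RCD without RCD library 1 (0.32, edgeR BH-adjusted p = 0.0479) or 6 (0.33, 0.0429), while without RCD library 3 and AM132 library 8 together AM132 against RCD gave 0.15 (0.354). With library totals the values for AM132 were 0.09 against AM608 and 0.11 against RCD.

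**Figure D2:**
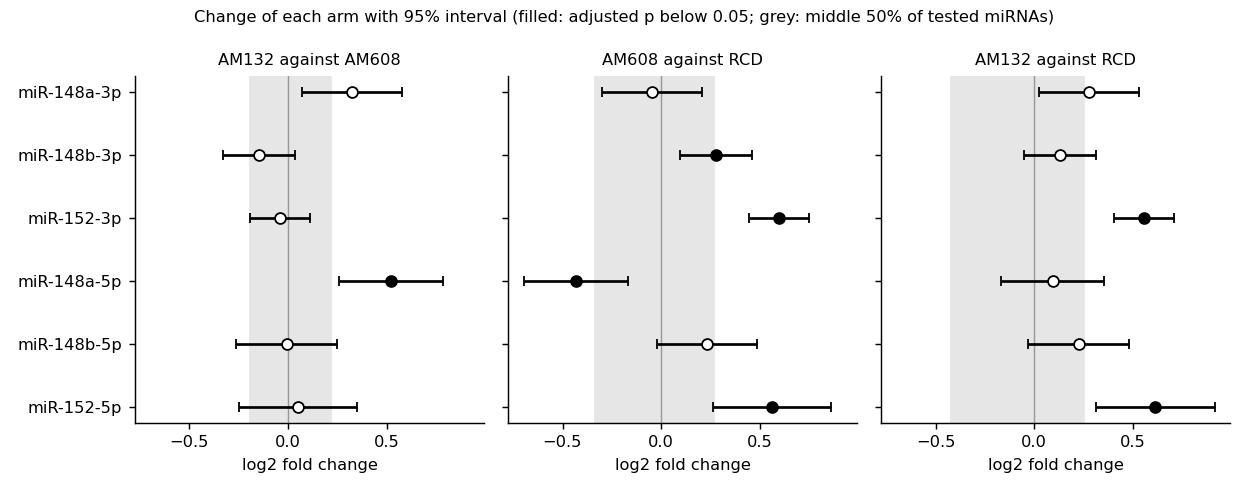
Log2 fold change of each arm in the 3 comparisons, with its 95% interval; filled points have an edgeR BH-adjusted p below 0.05 and the grey band spans the middle 50% of the 421 tested miRNAs. Both miR-152 arms lie to the right of the band in AM608 against RCD and in AM132 against RCD, and miR-148a-5p lies to its left in AM608 against RCD and to its right in AM132 against AM608. Also to its right are miR-148b-3p in AM608 against RCD and miR-148a-3p, not called, in both comparisons of AM132.

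Over all 6 members, 1 was called in AM132 against AM608 (miR-148a-5p, higher), where 12.4% of the tested miRNAs were called in either direction, 4.04% higher and 8.31% lower. In AM608 against RCD 4 of the 6 were called, 3 higher and 1 lower, where 28.7% of the tested miRNAs were called, 13.5% higher and 15.2% lower. In AM132 against RCD 2 were called, both higher, where 34.2% were called, 15.4% higher and 18.8% lower. Groups lay apart in CPM for 1 member in AM132 against AM608, 2 in AM608 against RCD and 1 in AM132 against RCD. All lay higher in the group named first. As shares of all miRNA counts, miR-148a-5p overlapped between AM132 and AM608, and miR-152-5p between AM608 and RCD. Among all tested miRNAs 1.66%, 4.04% and 3.09% lay apart in CPM as higher in the 3 comparisons, and 6.65%, 9.26% and 8.79% in either direction. The median log2 fold change of the members was 0.02, 0.26 and 0.25 in these comparisons, beside 0.05, -0.03 and 0.03 over all tested miRNAs. Arms of a hairpin share their transcript, so the 6 are not independent. Without RCD library 3 and AM132 library 8 each of these 7 calls of members was kept.

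Hepatocyte miRNAs were read beside miR-148a. The sum of miR-122-5p, miR-122-3p, miR-192-5p and miR-194-5p was 338284 to 442932 CPM in AM132, 226894 to 326858 CPM in AM608 and 154143 to 369008 CPM in RCD. Of the 4, miR-192-5p was called higher in AM132 than in AM608 (0.58, edgeR BH-adjusted p = 8.16e-04), and the median of the list was 0.50; DESeq2 also called miR-122-5p, which edgeR did not (0.42, BH-adjusted p = 0.0517). In AM608 against RCD 1 of the 4 was called, miR-122-3p, which was lower (-0.89, edgeR BH-adjusted p = 0.0242; not called by limma voom), with a median of -0.09. In AM132 against RCD 2 were higher, miR-192-5p (0.53, edgeR BH-adjusted p = 7.56e-04) and miR-194-5p (0.45, 0.0174), with a median of 0.36. In AM608 the sum was 319489 to 326858 CPM in libraries 1, 2 and 4, and 226894 to 282115 CPM in the other 5. The part of this in the values of miR-148a was not tested, and in bulk liver fewer cells of a type and less RNA per cell cannot be told apart.

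Markers of other cell types were read beside the rise of miR-152 in AM608 against RCD. The mesenchymal list (miR-199a-3p, miR-199a-5p, miR-214-3p, miR-143-3p and miR-145a-5p) had 1 of 5 called, miR-145a-5p, which was lower (-0.65, edgeR BH-adjusted p = 0.00145). The others, miR-199a-3p (0.18), miR-199a-5p (0.12), miR-214-3p (0.12) and miR-143-3p (-0.25), were not called, and the list median was 0.12. In AM132 against RCD miR-145a-5p (-0.61, edgeR BH-adjusted p = 0.00234) and miR-199a-3p (-0.56, 0.0155) were lower, 2 of the 5, where 18.8% of all tested miRNAs were lower. The list median was -0.31 there. The summed level of the list was 9300 to 14485 CPM in AM132, 10193 to 16975 CPM in AM608 and 12162 to 25343 CPM in RCD. The highest RCD sum was that of RCD library 3, and the next was 15531 CPM in RCD library 7. Of the 2 endothelial miRNAs miR-126a-3p was higher in AM608 than in RCD (0.29, edgeR BH-adjusted p = 0.0104). There miR-126a-5p was not called (-0.16, edgeR BH-adjusted p = 0.552), for a list median of 0.06. The endothelial sum, nearly all of it miR-126a-3p, was 42050 to 58548 CPM in AM132, 41239 to 47918 CPM in AM608 and 28538 to 43231 CPM in RCD. Of 5 biliary epithelial miRNAs miR-200c-3p was higher (0.48, edgeR BH-adjusted p = 0.0256), with a median of 0.48 and sums of 585 to 3158 CPM in AM608 and 425 to 1832 CPM in RCD. The part of these cell types in the values of miR-152 was not tested. Of 6 leukocyte miRNAs, 4 were tested and 0 were called by edgeR or limma voom in AM608 against RCD, where 1 had an unadjusted p below 0.05 and DESeq2 called 1, miR-150-5p (-1.04 in edgeR). Of 4 erythroid miRNAs, 3 were tested and 0 were called by edgeR, DESeq2 or limma voom in that comparison, with 2 at an unadjusted p below 0.05. The defining markers miR-142-3p, miR-142-5p and miR-486-5p were listed at 0 in all libraries, while miR-146a-5p averaged 4821 CPM and miR-451a 469 CPM in AM608. Since the rule for counting reads is not given, these zeros cannot be read as absence. Pancreas, where miR-148a-3p is also abundant, was checked with miR-216a-5p, miR-216b-5p, miR-217-5p and miR-375-3p. These summed to 1.90 to 3.89 CPM in AM132, 1.96 to 4.35 CPM in AM608 and 2.19 to 14.9 CPM in RCD. The highest of these RCD sums was that of RCD library 3, and the next was 7.46 CPM in RCD library 6. Of 2 tested neuronal miRNAs of 6, miR-9-5p was lower in AM608 (-4.27) and AM132 (-4.83) than in RCD, as was miR-1a-3p (-2.22 and -1.87) of 2 tested muscle miRNAs of 3. Without RCD library 3 miR-9-5p was still called (-2.16 in AM608 and -2.74 in AM132, edgeR BH-adjusted p = 9.78e-04 and 1.02e-04), while miR-1a-3p lost both calls (-1.33 and -0.99, edgeR BH-adjusted p = 0.0558 and 0.152).

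Because every member with the seed CAGUGCA is counted in the same library, their ratio needs no scaling between libraries, and it tests whether members changed unequally. There were 9 such comparisons, from 3 ratios and 3 pairs of groups, with two-sided exact permutation tests over 12870 assignments and a Benjamini-Hochberg adjustment over the 9. Reads of miR-148a-3p per read of miR-152-3p were 109 to 178 in AM608 (median 126), against 184 to 285 in RCD (median 201). All 8 AM608 libraries lay below all 8 RCD libraries, with libraries 1, 2 and 4 at 178, 157 and 178 and the other 5 at 109 to 136. The difference in mean log2 ratio was -0.66, with an exact p of 1.55e-04, the smallest these permutations can give, and an adjusted p of 0.0014. Between AM608 and RCD the levels themselves had log2 fold changes of -0.05 for miR-148a-3p and 0.60 for miR-152-3p, so this ratio largely restates the latter. How often ratios of other miRNAs lay apart between these groups was not counted.

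In AM132 the ratio of miR-148a-3p to miR-152-3p lay between the other groups, at 132 to 230 (median 174). It was higher than in AM608 by 0.39 in log2 ratio (exact permutation p = 0.019, adjusted p = 0.0284), a call lost when AM608 library 5, 6, 7 or 8 was left out (0.34 to 0.36, adjusted p of 0.052 to 0.0543). Against RCD it differed by -0.27 (exact permutation p = 0.0427, adjusted p = 0.0549), which passed without AM132 library 5, 6 or 8 or RCD library 2 or 7. Without AM132 library 8 and RCD library 3 this difference was -0.34 (adjusted p = 0.0325). Between AM132 and AM608 the levels themselves had log2 fold changes of 0.32 for miR-148a-3p and -0.04 for miR-152-3p, neither called.

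Reads of miR-148a-3p per read of miR-148b-3p were 179 to 266 in AM132 (median 211), 120 to 197 in AM608 (median 138) and 164 to 243 in RCD (median 188). AM608 libraries 1, 2 and 4 were at 197, 191 and 182, inside the ranges of both other groups, and the other 5 at 120 to 145, below every library of the other groups. AM132 was higher than AM608 by 0.49 in log2 ratio (exact permutation p = 0.00155, adjusted p = 0.00606). AM608 was lower than RCD by a difference of -0.35 (exact permutation p = 0.0166, adjusted p = 0.0284), a call lost without AM608 library 5, 7 or 8 or RCD library 5 (-0.32 to -0.30, adjusted p of 0.0501 to 0.0543). AM132 and RCD overlapped (0.14, exact permutation p = 0.17).

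The ratio of miR-152-3p to miR-148b-3p tests whether miR-152-3p rose more than its neighbour in level. Its median was 1.22 in AM132, 1.11 in AM608 and 0.887 in RCD. It was higher in AM608 than in RCD by 0.31 in log2 ratio (exact permutation p = 0.00948, adjusted p = 0.0213) and in AM132 than in RCD by 0.41 (exact permutation p = 0.00202, adjusted p = 0.00606), with overlap in both. AM132 and AM608 differed by 0.10 (exact permutation p = 0.133, adjusted p = 0.15).

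**Figure D3:**
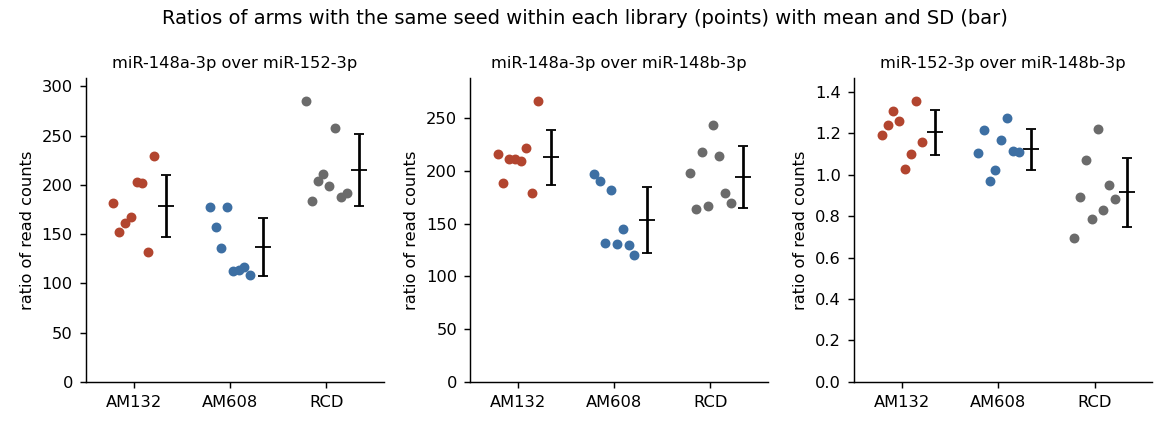
Ratios of read counts between the 3 guides within each library, by group; each point is a library and the bar gives mean and SD, on linear axes from 0. The AM608 points of miR-148a-3p over miR-152-3p all lie below the RCD points, with AM132 overlapping both.

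The arms of a hairpin can also be set against each other within a library. miR-148a gave 574 to 741 reads of the 3p arm per read of the 5p arm in AM132 livers, 700 to 814 in AM608 livers, and 511 to 648 in RCD livers. The same ratio averaged 25.2 for miR-148b and 29.5 for miR-152 in AM132, 27.6 and 30.2 in AM608, and 27.6 and 30.2 in RCD, so the guide outweighed the passenger most in miR-148a. The 5p arm of miR-148a made up 0.123 to 0.143% of its reads in AM608, against 0.154 to 0.195% in RCD, with no overlap; groups lay apart for 4.67% of the 107 tested pairs of arms, and in this direction for 3.74%. The log2 ratio of 5p to 3p of miR-148a was lower in AM608 than in RCD by a difference of -0.37 (SE 0.105, limma adjusted p = 0.0283 over the 107 pairs, of which 7.48% were called and 4.67% were lower). The call was lost without AM608 library 2, 4 or 5 (-0.36 to -0.35, limma adjusted p of 0.0614 to 0.0629). In AM132 the share was 0.135 to 0.174%, and the ratio was not called against AM608 (0.20, 95% interval -0.02 to 0.41, limma adjusted p = 0.252) or RCD (-0.17, -0.39 to 0.04, limma adjusted p = 0.232), comparisons in which 19.6% and 23.4% of the pairs were called.

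miR-152 and miR-148b showed no called shift between arms. For miR-152 the difference in log2 ratio of 5p to 3p was 0.06 for AM132 against AM608, -0.03 for AM608 against RCD and 0.03 for AM132 against RCD (95% intervals -0.25 to 0.36, -0.34 to 0.28 and -0.28 to 0.34, limma adjusted p of 0.895 to 0.95). For miR-148b the differences were 0.14, -0.03 and 0.10 (limma adjusted p of 0.541 to 0.95). The miR-152 passenger rested on 111 to 348 counts per library and the miR-148b passenger on 125 to 300, fewer than the 1245 to 1985 of the miR-148a passenger.

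**Figure D4:**
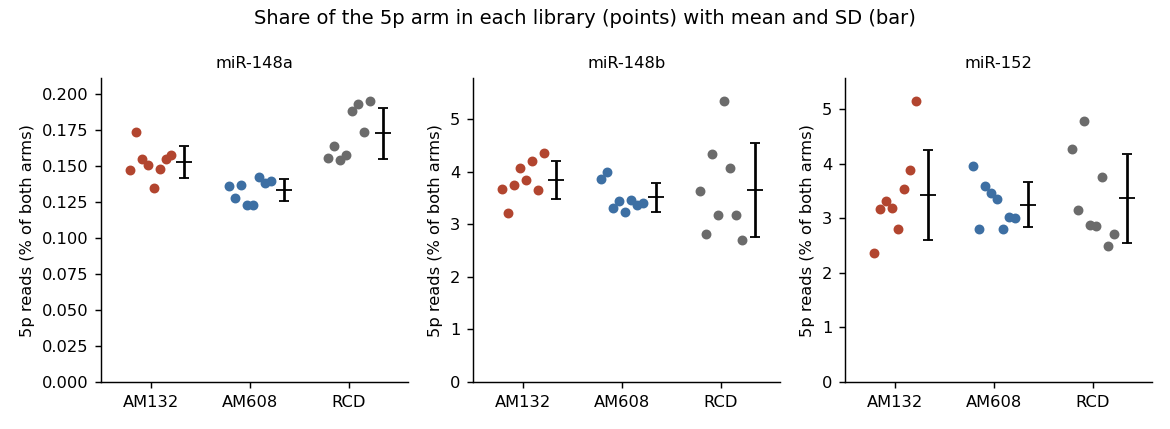
Share of 5p reads among the reads of both arms, in percent, for each hairpin and library; the bar gives mean and SD, on linear axes from 0. For miR-148a the 8 AM608 points lie below the 8 RCD points, while the groups overlap for miR-148b and miR-152.

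The miRNAs whose profile was most like that of a member were found by the root mean square difference of log2 CPM over the 24 libraries, each centred on its own mean, among 415 other tested miRNAs. Closest to miR-152-3p were miR-744-5p (0.12), miR-103-3p (0.16), miR-1839-5p (0.17), let-7f-5p (0.18) and miR-98-5p (0.19), beside a median of 0.51 over the 415. All 5 were called higher in AM608 than in RCD and in AM132 than in RCD, where 13.5% and 15.4% of all tested miRNAs were. Since they were picked by profile over the same libraries, sharing the calls of miR-152-3p follows largely from the choice. In AM132 against AM608 the edgeR BH-adjusted p of the 5 ran from 0.311 to 0.698. miR-744-5p had a log2 fold change of 0.64 in AM608 against RCD. Closest to miR-148a-3p were miR-22-5p (0.12), miR-1843a-5p (0.15), miR-22-3p (0.16), miR-30a-5p (0.16) and miR-30c-2-3p (0.16), beside a median of 0.53. Their edgeR BH-adjusted p was 0.0695 or above in all 3 comparisons, which likewise follows largely from how they were picked. Within the family, miR-148a-3p and miR-148a-5p differed by 0.19, and miR-148a-5p and miR-152-5p were farthest apart at 0.51.

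Other miRNAs reported to act on DNA methyltransferase transcripts were followed as a list of 8, all tested; its shares called, 1, 2 and 1 of 8 in the 3 comparisons below, stand beside 12.4%, 28.7% and 34.2% of all tested miRNAs. In AM132 against AM608 1 was called, miR-185-5p, which was higher (1.40, with an edgeR BH-adjusted p of 3.2e-09); DESeq2 also called miR-101a-3p (0.21 in edgeR). In AM608 against RCD 2 were lower, miR-185-5p (-0.96, edgeR BH-adjusted p = 1.55e-06) and miR-29a-3p (-0.35, edgeR BH-adjusted p = 0.0361). Here limma voom called miR-185-5p alone, and DESeq2 added miR-29c-3p (-0.60 in edgeR). In AM132 against RCD 1 was called, miR-185-5p, which was higher (0.44, edgeR BH-adjusted p = 0.00616). The median of the list was 0.23 in AM132 against AM608, -0.28 in AM608 against RCD and -0.04 in AM132 against RCD.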

How the data were processed

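Liver RNA was extracted with miRNeasy, made into NEBNext small RNA libraries and sequenced on an Illumina NextSeq, per the labels' protocols. The values are raw read counts per mature miRNA name as deposited by the authors. The submitters' processing notes name FastQC; for trimming, alignment, build and reads that match several miRNAs, the method is not given in the sources used here. Of 1908 names, 584 had no count in any library. PCR reads are not independent molecules, so floors cover counting error only. The tRNA fragment table was not used.

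Groups came from titles, and columns were matched by group and number in their names. All 84 within-group pairs differed by more than counting noise, with chi-square over its degrees of freedom at 25.7 or above. edgeR 4.0.16 (R 4.3.3) fitted all 24 libraries with TMM factors, filterByExpr, group as the only term and a robust quasi-likelihood test, with Benjamini-Hochberg adjustment over 421 miRNAs and a threshold of 0.05. An SE is the log2 fold change over the square root of F. Log2 ratios of arms and guides had 0.5 counts added; arm ratios were fitted with limma 3.58.1 over 107 pairs. The fits were tested on simulated data and the permutation test on values with a known answer. Alternatives were RLE factors, library totals, other filters, DESeq2 1.42.0, limma voom, only 2 groups, a replicate block, and libraries left out. Named miRNAs are the 6 members, miR-132-3p and miR-122-5p as checks, the 5 nearest profiles of miR-148a-3p and miR-152-3p, and members of the lists. The members and lists were chosen with earlier results of these data known. miR-142a and miR-486a of the lists were matched to the table's miR-142 and miR-486. One further list of miRNAs is not reported here.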

Additional observations from a re-analysis of the deposited data

Results flagged for a closer look

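In AM132 library 8 miR-148a-5p was at 331.4 CPM, set apart from the next highest AM132 library at 269.2 CPM by 0.622 of the range of its group. It was the 1 such library in 36 groups of values checked (members, arm ratios and guide ratios), where chance flags about 1 in 20. miR-148a-3p was also highest there among AM132 libraries, at 210062 CPM. Without AM132 library 8 the log2 fold change of miR-148a-5p in AM132 against AM608 was 0.47 (edgeR adjusted p = 0.0171), against 0.52 with it.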

How the results depend on the processing

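Of the 14 called results of members, arm ratios and guide ratios, 79 of 85 repeats under other settings and 325 of 336 with 1 library left out kept direction and call; the causes of the exceptions were not tested. DESeq2, limma voom and RLE factors changed no call of a member. With library totals miR-148b-3p (-0.39) and miR-152-3p (-0.29) were called lower in AM132 than in AM608, miR-152-5p turned to -0.19, and 91 miRNAs were called, 8 higher and 83 lower, against 52. In AM608 against RCD that setting turned miR-148a-3p to 0.013 and called miR-148b-5p (0.31). In AM132 against RCD it turned miR-148a-5p to -0.072 and miR-148b-3p to -0.038, and its calls were 27 higher and 105 lower, against 65 and 79. Without a filter miR-148b-3p lost its call in AM608 against RCD (0.24). At a mean of at least 10 CPM, miR-148a-3p was called in AM132 against AM608 (0.31), and 94 miRNAs were called in AM132 against RCD, against 144, with fewer tested. With only the groups compared, miR-148b-3p was called in AM132 against AM608 (-0.18), lost its call in AM608 against RCD (0.24), and 87 miRNAs were called in AM132 against AM608.

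Replicate numbers did not pair the samples: 11 of 24 same-number pairs correlated above 0.1 (range -0.36 to 0.39), and 5 of 24 libraries were closest to their own number. With a replicate block the miR-148a arm ratio in AM608 against RCD (-0.37), miR-148a-3p over miR-152-3p in AM132 against AM608 (0.39), and, for AM608 against RCD, miR-148a-3p over miR-148b-3p (-0.35) and miR-152-3p over miR-148b-3p (0.31) missed the threshold; calls numbered 47, 109 and 132, against 52, 121 and 144.

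With libraries left out, singly or RCD library 3 with AM132 library 8, values ran as follows. In AM132 against AM608 miR-148b-5p ran from -0.058 to 0.014, miR-152-5p from -0.071 to 0.12, the miR-152 arm ratio from -0.036 to 0.13, and miR-148a-3p over miR-152-3p from 0.33 to 0.45. In AM608 against RCD miR-148a-3p ran from -0.093 to 0.0076, the arm ratio from -0.39 to -0.34 for miR-148a, from -0.090 to 0.056 for miR-148b and from -0.086 to 0.053 for miR-152, and miR-148a-3p over miR-148b-3p from -0.40 to -0.30. In AM132 against RCD miR-148a-3p ran from 0.15 to 0.33, miR-148a-5p from -0.057 to 0.18, the miR-152 arm ratio from -0.064 to 0.11, and miR-148a-3p over miR-152-3p from -0.34 to -0.21. Depth limits the passengers of miR-148b and miR-152 most, at 111 to 348 counts per library.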
